A study of Mus musculus with 4 samples.

Results

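The cells described here are granulocyte-monocyte progenitors (GMPs) of mouse bone marrow in which transcripts of *Cebpe* and of *Ly86* were read in the same cell. They were selected on 2 measured values, the raw counts of unique molecular identifiers (UMIs, each standing for 1 captured transcript) of these genes, and a cell of the GMP sort was called double-positive when it held at least 2 UMIs of each. There were 150 such cells among the 3977 cells of the GMP sort, 51 of 1258 in WT and 99 of 2719 in *Tet2* KO, out of 8969 cells in the whole series. They were set beside a pair of reference classes of the same libraries. The *Ly86* class held cells with at least 3 *Ly86* and at most 1 *Cebpe* UMIs (421 WT and 676 *Tet2* KO cells), and the *Cebpe* class held cells with at least 2 *Cebpe* and at most 1 *Ly86* UMIs (382 and 723 cells). The levels of both genes are therefore given as a description only.

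GMPs give rise to neutrophils and to monocytes. C/EBPε, the product of *Cebpe*, is a transcription factor of later granulocyte maturation that drives the genes of the secondary granules, whereas MD-1, the product of *Ly86*, is the partner of CD180, a relative of the Toll-like receptors. The choice between both fates is commonly described as an opposition of *Gfi1*, a repressor that favours granulocytes, and *Irf8*, an interferon regulatory factor that favours monocytes and dendritic cells.

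Both genotypes carried *Tet2* alleles flanked by loxP sites (*Tet2* fl/fl). The *Tet2* KO mouse also carried Mx1-Cre, a recombinase under an interferon-inducible promoter that is not restricted to myeloid cells, and the control, called WT here, came from littermates without Cre. Both had received 4 doses of pI:pC at 12.5 ug/g into the peritoneum, and the study used young adult animals. The GMP sort took Lin- cKit+ Sca1- CD34+ CD16/32+ cells, and a second sort of the same 2 mice, named Lin_neg_CD11b in the labels, covered Lin- progenitors and CD11b+ cells.

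Each genotype and sort was 1 library, and the cell table gives 1 mouse per genotype. Nothing in this design measures the spread between animals, so no test between genotypes or classes could be made, and genotype, mouse and library cannot be told apart. Except for those of median depth, intervals are 95% intervals that cover counting error only (exact Poisson for levels, Clopper-Pearson for shares, exact conditional binomial for ratios). Those of levels and ratios pool the UMIs of a group and leave out the spread between its cells. At least 5 UMIs of *Mpo*, the myeloperoxidase gene that GMPs transcribe, were read in 98.0% of WT and 99.2% of *Tet2* KO cells of the GMP sort, against 43.9% and 44.1% in the other sort. Cells held at least 5003 UMIs. Each pair of libraries shared 4 to 8 cell barcodes, and 3 double-positive cells carried a barcode that occurred in another library. Without all such cells the share of double-positive cells was 3.96% in WT and 3.63% in *Tet2* KO. *Tet2* itself was read at 19.5 CPM (UMIs of a gene or list scaled to a common total) in the WT and 19.3 CPM in the *Tet2* KO double-positive cells. Reads of this kind of library lie near the end of a transcript and do not check a deletion elsewhere in the gene.

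Double-positive cells made up 4.05% of the WT library (interval 3.03 to 5.30%) and 3.64% of the *Tet2* KO library (2.97 to 4.42%), and the intervals overlapped. Among cells with at least 2 *Cebpe* UMIs they were 11.8% in WT and 12.0% in *Tet2* KO. Among cells with at least 2 *Ly86* UMIs they were 9.26% and 9.87%. The shares of cells past each threshold alone multiplied to 15.1% in WT and 11.15% in *Tet2* KO, so both genes met in the same cell less often than their separate shares would give. The same order held in each of 4 bins of UMIs per cell in both libraries.

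**Figure D1:**
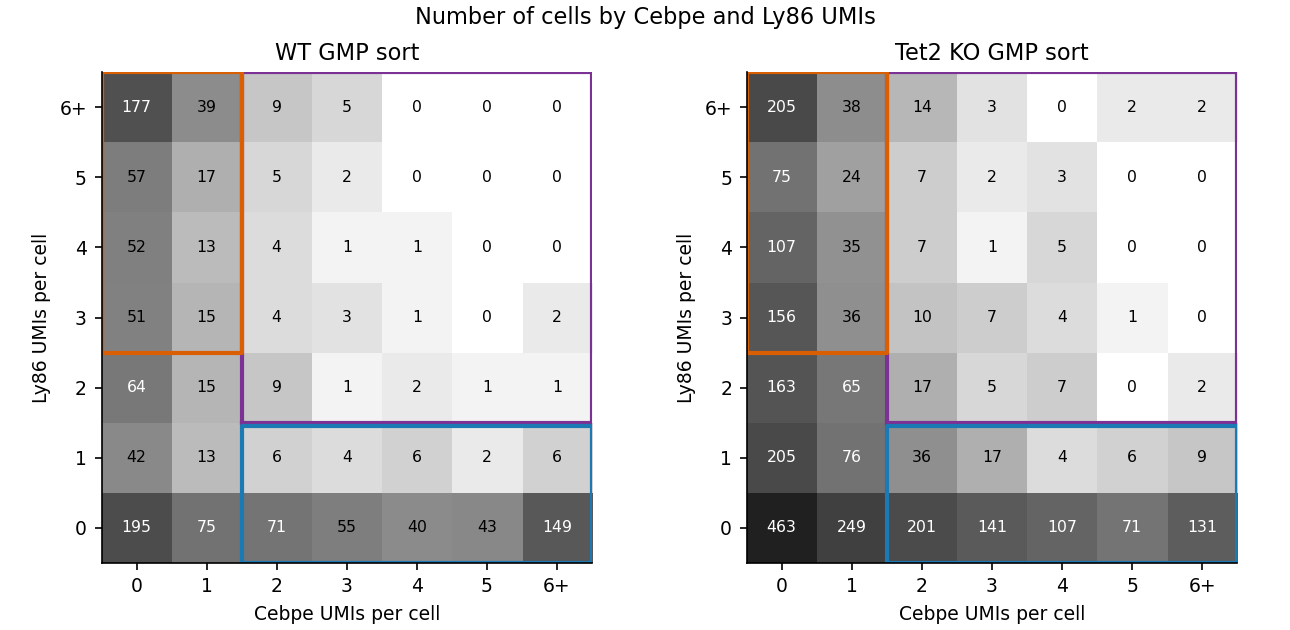
Number of cells of the WT (left) and *Tet2* KO (right) GMP sort at each combination of *Cebpe* UMIs (x axis) and *Ly86* UMIs (y axis), with 6+ standing for 6 or more. The purple frame holds the 51 and 99 double-positive cells, the orange frame the *Ly86* class and the blue frame the *Cebpe* class.

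Most members sat near the threshold for *Cebpe*. In WT, 31 of 51 double-positive cells had exactly 2 *Cebpe* UMIs, the median was 2 and the highest value was 12. In *Tet2* KO, 55 of 99 had exactly 2, with a median of 2 and a highest value of 13. *Ly86* had a median of 4 UMIs in WT (highest 11) and of 3 in *Tet2* KO (highest 12). No WT cell and 4 *Tet2* KO cells had 5 or more UMIs of both genes. In CPM of the summed UMIs, *Cebpe* was at 139 in the WT double-positive cells and 273 in the *Cebpe* class, and at 152 and 259 in *Tet2* KO. *Ly86* was at 232 CPM in WT members and 311 in the *Ly86* class, and at 203 and 294 in *Tet2* KO.

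Just inside the rule, 9 WT and 17 *Tet2* KO cells had exactly 2 UMIs of each gene, and a list of 22 monocytic genes summed to 5049 and 5175 CPM in them. Just outside it, 6 WT and 36 *Tet2* KO cells had 2 *Cebpe* UMIs and 1 *Ly86* UMI, with the same list at 3792 and 4638 CPM. A further 15 and 65 cells had 1 *Cebpe* and 2 *Ly86* UMIs, with the list at 6066 and 6293 CPM. The monocytic list just inside the rule thus lay between its levels in both kinds of cells just outside it. A list of 12 primary granule genes did so in *Tet2* KO, at 27913 CPM inside and 29769 and 25406 CPM outside, but not in WT, at 26354 CPM inside and 30612 and 27360 CPM outside.

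The depth of the cells was examined because 2 cells caught under 1 barcode would add up their UMIs. The WT double-positive cells had a median of 20185 UMIs, with quartiles at 17010 and 23702, 1.03 times the 19610 UMIs of the *Ly86* class and 1.03 times the 19661 UMIs of the *Cebpe* class. The *Tet2* KO double-positive cells had a median of 18316 UMIs, with quartiles at 15572 and 21612, 1.065 times the 17202 UMIs of the *Ly86* class and 1.21 times the 15100 UMIs of the *Cebpe* class. The medians of the members were thus slightly above those of both classes in WT and farther above them in *Tet2* KO, mostly over the *Cebpe* class. In each library both class medians lay inside the quartiles of the members, except that of the *Tet2* KO *Cebpe* class.

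The medians of both classes summed to 39271 UMIs in WT, which none of the 51 cells reached (highest 29316), and to 32302 UMIs in *Tet2* KO, which 4 of the 99 cells (4.04%) reached (highest 40372). In the *Ly86* class 1 WT cell (0.238%) and 5 *Tet2* KO cells (0.740%) reached these sums, and in the *Cebpe* class 0 cells did in either library. The share was thus higher in the *Tet2* KO members than in both *Tet2* KO classes. Cells below the medians of both classes numbered 23 of 51 in WT and 21 of 99 in *Tet2* KO. The share of cells above the 95th percentile of UMIs of their library was 3.92% in the WT members and 17.2% in the *Tet2* KO members, where the classes had 5.70% and 5.76% in WT and 7.10% and 4.15% in *Tet2* KO.

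**Figure D2:**
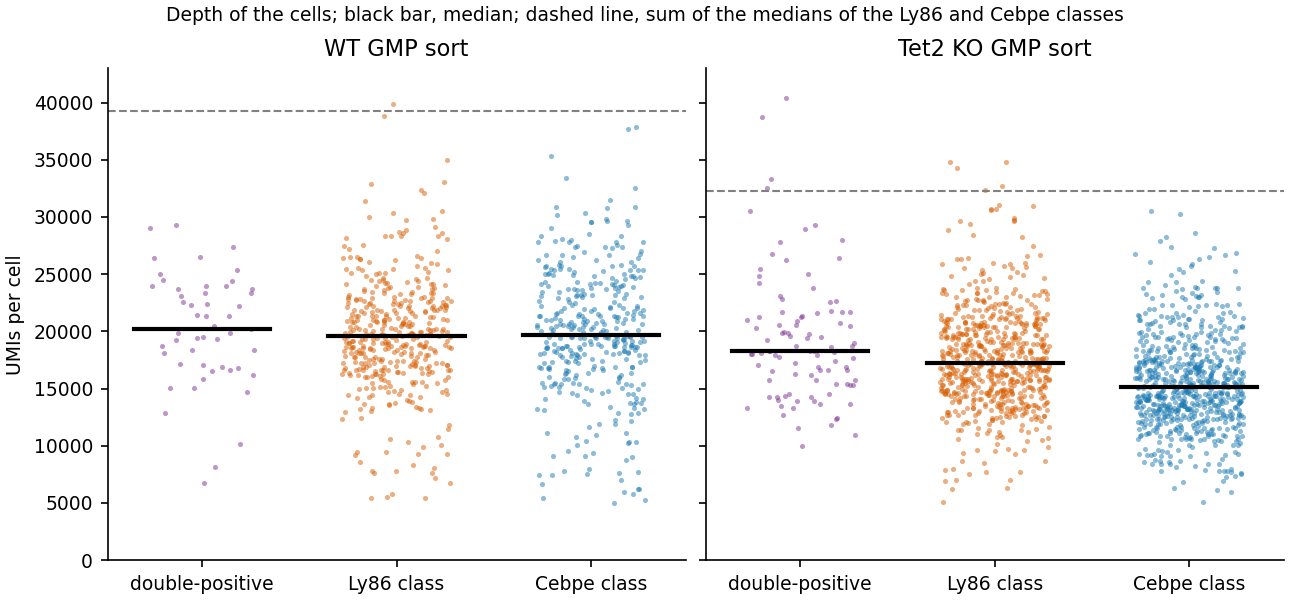
UMIs per cell (y axis) in the double-positive cells, the *Ly86* class and the *Cebpe* class of each GMP library, 1 point per cell, with the median as a black bar. The dashed line is the sum of the medians of the *Ly86* and *Cebpe* classes, which no WT and 4 *Tet2* KO double-positive cells reached.

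Scrublet, which scores each cell by its likeness to sums of pairs of cells of the same library, put 15.7% (7.02 to 28.6%) of the WT and 14.1% (7.95 to 22.6%) of the *Tet2* KO double-positive cells among the highest 5% of scores. The *Ly86* class had 3.80% and 2.37% there and the *Cebpe* class 3.14% and 3.60%. Over all cells of the library, 4.53% in WT and 3.97% in *Tet2* KO lay there. *Cebpe* and *Ly86* were left in the input, so the score is not independent of the rule. The score can also be high for a single cell whose expression lies between groups of cells. It called 11 doublets in the GMP sort (0.277% of cells), 2 WT and 3 *Tet2* KO members among them, a rate too low to be used, so no cell was removed. How many members hold RNA of 2 cells was not tested further.

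Detection of both genes depended on depth. In the lowest of the 4 bins of UMIs per cell 1.27% of WT and 1.03% of *Tet2* KO cells were double-positive, and in the highest bin 6.35% and 7.06% were. After drawing 5000 UMIs from each cell, 3 WT cells and 9 *Tet2* KO cells (0.331%) still met the rule.

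Free RNA in the droplets can place UMIs in cells that do not make a transcript. Cells of other lineages were read for comparison, though some of them may make the transcript or share a barcode with a second cell. In the GMP sort, cells with at least 5 UMIs of the basophil proteases *Mcpt8* and *Prss34* together had at least 2 *Ly86* UMIs in 9.18% of 98 WT and 7.97% of 138 *Tet2* KO cells, at median depths of 11902 and 12312 UMIs. In the other sort, cells with at least 100 UMIs of the secondary granule genes *Ltf*, *Ngp* and *Camp* had at least 2 *Ly86* UMIs in 11.3% of 151 WT and 18.3% of 169 *Tet2* KO cells, at median depths of 8976 and 9147 UMIs. At least 1 *Ly86* UMI was read in 14.3% and 18.8% of the cells with basophil proteases and in 14.6% and 26.0% of those with secondary granule genes. The 11.8% and 12.0% of *Cebpe*-positive GMPs that had *Ly86* lay above both shares of the GMP sort. In the other sort the WT share was slightly lower and the *Tet2* KO share higher. Such shares do not tell where the *Ly86* UMIs came from, which was not tested. *Cebpe*-positive GMPs were also deeper than these cells of other lineages.

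For *Cebpe*, cells of the other sort with lymphoid genes (at least 3 UMIs of *Jchain*, *Cd79a* or *Cd3e*) had at least 2 UMIs in 4.68% of 235 WT and 3.25% of 308 *Tet2* KO cells, at median depths of 13900 and 11723 UMIs. The share among *Ly86*-positive GMPs, 9.26% and 9.87%, was higher than that. It was below the share in the GMP-sort cells with the basophil proteases, of which 22.4% and 21.7% had at least 2 *Cebpe* UMIs. Genes that the rule did not read are described next.

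Genes of the monocytic programme were read in the double-positive cells at levels somewhat below those of the *Ly86* class and well above those of the *Cebpe* class. The list of 22 genes summed to 5954 CPM in WT double-positive cells, 7032 CPM in the *Ly86* class and 1779 CPM in the *Cebpe* class. In *Tet2* KO it was at 6025, 7191 and 2696 CPM. The log2 ratio over the *Ly86* class was -0.24 (-0.28 to -0.20) in WT and -0.26 (-0.28 to -0.23) in *Tet2* KO. Over the *Cebpe* class it was 1.74 (1.70 to 1.79) in WT and 1.16 (1.13 to 1.19) in *Tet2* KO.

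*Ly6c2*, a surface antigen of monocytes, held a large part of this sum and stood at the level of the *Ly86* class. It was at 2977 CPM in WT members, 2948 in the *Ly86* class and 953.5 in the *Cebpe* class, and at 3239, 3356 and 1760 CPM in *Tet2* KO. Without it the list had a log2 ratio over the *Ly86* class of -0.46 in both libraries and over the *Cebpe* class of 1.85 in WT and 1.57 in *Tet2* KO.

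A single gene was counted as different when it differed at least 2-fold in the same direction in both libraries, on CPM plus 1, among the 5928 genes with at least 10 CPM over all cells of each GMP library. Of the 19 monocytic genes at that level, 14 were higher than in the *Cebpe* class and none was lower, where 1.7% of all genes tested were higher and 0.793% lower. None of the 19 differed 2-fold from the *Ly86* class, where 0.304% of all genes were higher and 0.118% lower. The median log2 ratio of the 19 genes was 2.22 over the *Cebpe* class and -0.54 over the *Ly86* class, beside 0.02 and -0.01 for all genes tested.

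*Irf8* was read at 378 CPM in the WT double-positive cells, 577 CPM in the *Ly86* class and 18.5 CPM in the *Cebpe* class. In *Tet2* KO it was at 310.0, 449 and 48.6 CPM. The log2 ratio over the *Ly86* class was -0.61 (-0.76 to -0.46) in WT and -0.53 (-0.66 to -0.41) in *Tet2* KO, and that over the *Cebpe* class 4.36 and 2.67. At least 1 *Irf8* UMI was found in 46 of 51 WT and 91 of 99 *Tet2* KO double-positive cells (90.2% and 91.9%), in 99.8% and 99.4% of the *Ly86* class and in 20.7% and 32.0% of the *Cebpe* class. Brought to 5000 UMIs per cell, the expected shares were 72.1% and 69.9% in the members and 7.53% and 16.4% in the *Cebpe* class. *Irf8* was therefore present in most members and below the *Ly86* class in level.

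Other regulators and receptors of the monocytic side lay in the same order. *Klf4*, a transcription factor of monocyte differentiation, was at 26.3 CPM in WT and 37.0 CPM in *Tet2* KO members, with 45.6 and 50.5 CPM in the *Ly86* class and 1.85 and 3.75 CPM in the *Cebpe* class. *Csf1r*, the receptor for macrophage colony-stimulating factor, was at 36.0 and 36.5 CPM, with 52.7 and 43.2 CPM in the *Ly86* class and 3.57 and 8.65 CPM in the *Cebpe* class. *F13a1*, a subunit of coagulation factor XIII, was at 254 and 220.4 CPM, with 404 and 358 CPM in the *Ly86* class and 22.8 and 38.7 CPM in the *Cebpe* class. In each case the members lay between the classes, although for *Csf1r* in *Tet2* KO the interval of the ratio over the *Ly86* class included 0 (-0.25, -0.63 to 0.12).

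By the smaller ratio of both libraries, the 10 genes that stood highest over the *Cebpe* class were *Aif1*, *Lgals3*, *S100a6*, *S100a4*, *Ctss*, *Trem2*, *Pld4*, *Ms4a4c*, *Tpm4* and *Prdx4*. *Lgals3* (galectin-3) was at 184 CPM in WT and 193 CPM in *Tet2* KO members and at 3.17 and 11.5 CPM in the *Cebpe* class. *Ctss*, the lysosomal protease cathepsin S, was at 60.3 and 50.02 CPM and at 0.79 and 4.28 CPM in that class. *Aif1*, a calcium-binding protein of the monocyte lineage, was at 33.1 and 34.9 CPM in the members, where the *Cebpe* class had 1 UMI in WT and 1.16 CPM in *Tet2* KO. Single cells differed in these genes: *Lgals3* was read in 24 of 51 and 51 of 99 members, *Ctss* in 23 and 46, and *Aif1* in 16 and 30.

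Genes of the primary granules were at an intermediate level. These granules are laid down early in granulocyte development, and their proteases are already transcribed in GMPs. The list of 12 genes summed to 26294 CPM in WT double-positive cells, 18520 CPM in the *Ly86* class and 36845 CPM in the *Cebpe* class, and in *Tet2* KO to 26650, 19174 and 36375 CPM. The log2 ratio over the *Ly86* class was 0.51 (0.49 to 0.52) in WT and 0.475 (0.46 to 0.49) in *Tet2* KO. Over the *Cebpe* class it was -0.49 (-0.50 to -0.47) in WT and -0.45 (-0.46 to -0.44) in *Tet2* KO.

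*Elane*, neutrophil elastase, was at 7470 CPM in WT members, 4465 CPM in the *Ly86* class and 10730 CPM in the *Cebpe* class. In *Tet2* KO it was at 7795, 4656 and 11182 CPM. *Mpo*, myeloperoxidase, was at 5040 CPM in WT members, 3977 in the *Ly86* and 6660 in the *Cebpe* class, and at 4899, 3618 and 6585 CPM in *Tet2* KO. Both enzymes thus lay between the classes in each library. *Ctsg*, cathepsin G, did so too, at 4124, 2971 and 6087 CPM in WT and at 4187, 3188 and 5724 CPM in *Tet2* KO.

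Of 11 primary granule genes tested, 1 was 2-fold higher than in each class and none was 2-fold lower. Among all genes tested, 0.304% were higher than in the *Ly86* class and 1.7% higher than in the *Cebpe* class. *Nkg7*, a granule membrane protein, was higher than in the *Ly86* class, at 760 CPM in WT and 727 CPM in *Tet2* KO members where that class had 268 and 344 CPM. *Ctsc*, the protease that activates the serine proteases of the granules, was higher than in the *Cebpe* class, at 79.8 and 180.3 CPM where that class had 29.1 and 34.6 CPM and the *Ly86* class 107 and 184 CPM. For *Ctsc* the members were therefore at or below the *Ly86* class and not intermediate in the sense of *Elane*.

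**Figure D3:**
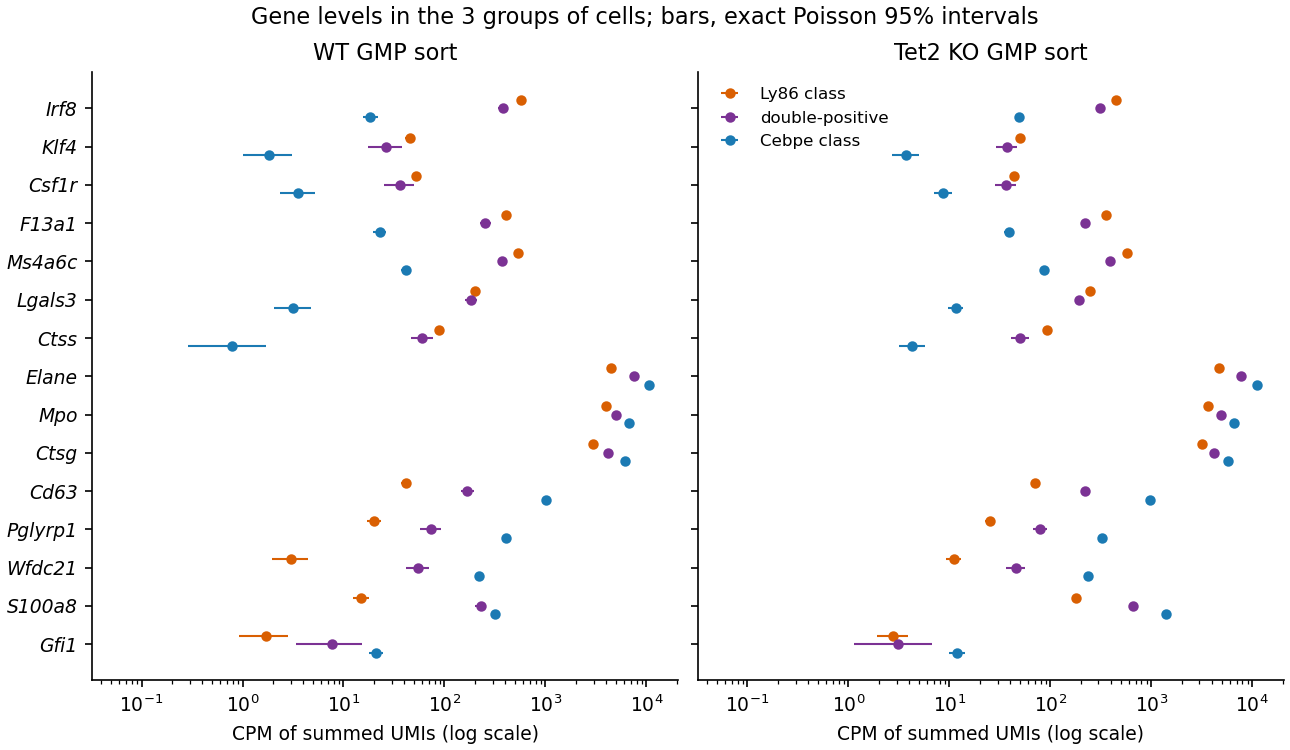
Level of 15 genes (x axis, CPM of the summed UMIs, log scale) in the *Ly86* class (orange), the double-positive cells (purple) and the *Cebpe* class (blue) of the WT and *Tet2* KO GMP sort, with exact Poisson 95% intervals as bars. For *Irf8* the purple points (378 and 310.0 CPM) lie near the orange ones, and for *Elane* (7470 and 7795 CPM) they lie between orange and blue.

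The genes that stood highest over the *Ly86* class included several of granulocytes. Among the first 10 by the smaller ratio of both libraries were *S100a9*, *Wfdc21*, *S100a8*, *Cd63*, *Pglyrp1*, *Serpine2*, *Vat1*, *Sept1* and *G0s2*. *Cd63*, a tetraspanin of granule membranes, was at 169 CPM in WT and 220.4 CPM in *Tet2* KO members, at 41.6 and 70.5 CPM in the *Ly86* class and at 1006 and 968 CPM in the *Cebpe* class. *Pglyrp1*, a peptidoglycan recognition protein of neutrophil granules, was at 73.0 and 78.7 CPM in the members, at 20.1 and 25.5 CPM in the *Ly86* class and at 410.5 and 327 CPM in the *Cebpe* class. Both genes were also among the 10 lowest over the *Cebpe* class, so the members stood apart from either class in them.

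A few cells carried much of the calgranulins, the calcium-binding proteins of neutrophils and monocytes. *S100a8* was at 229.6 CPM in WT members and 14.9 CPM in the *Ly86* class, and at 663 and 181 CPM in *Tet2* KO, with 1 cell giving 25.4% of the members' UMIs in WT and 23.7% in *Tet2* KO. *S100a9* was at 33.1 and 28.7 CPM in the members but was read in 4 of 51 and 12 of 99 cells, and 1 cell gave 70.6% and 47.3% of its UMIs. *Wfdc21*, a small whey acidic protein family member, was at 54.5 and 45.3 CPM, was read in 10 and 31 cells, and had 41.1% and 20.7% of its UMIs in 1 cell.

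Of 9 secondary and tertiary granule genes tested, 4 were 2-fold higher than in the *Ly86* class (*S100a8*, *S100a9*, *Wfdc21* and *Pglyrp1*), and none was lower. The shares over all genes tested were 0.304% higher and 0.118% lower. Against the *Cebpe* class *Ifitm6* and *Cybb* were higher and *Wfdc21* and *Pglyrp1* lower, where 1.7% of all genes were higher and 0.793% lower. *Cybb*, the catalytic subunit of the phagocyte oxidase, was at 46.7 and 69.3 CPM in the members, 49.3 and 64.3 CPM in the *Ly86* class and 7.13 and 18.4 CPM in the *Cebpe* class. The best known C/EBPε targets of the secondary granule were hardly read. *Ltf* (lactoferrin) gave 2 UMIs in all WT members and 0 in *Tet2* KO, *Ngp* gave 6 and 0, and *Camp* gave 2 and 0. The *Cebpe* class, too, had these 3 genes below 2 CPM in both libraries.

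Among 19 fate regulators tested, *Irf8*, *Irf5* and *Klf4* were 2-fold higher than in the *Cebpe* class, *Per3*, a clock gene, was 2-fold lower, and none differed 2-fold from the *Ly86* class. Over all genes tested, 1.7% were higher and 0.793% lower than in the *Cebpe* class. *Gfi1* was read in few cells. Its 8 UMIs in WT came from 7 of 51 members (7.78 CPM, log2 ratio over the *Ly86* class 2.20, 0.74 to 3.56), and its 6 UMIs in *Tet2* KO from 5 of 99 members (3.13 CPM, 0.17, -1.37 to 1.447). In the *Cebpe* class it was read in 31.9% of WT and 16.3% of *Tet2* KO cells. A UMI of both *Gfi1* and *Irf8* was found in 5 of 51 WT members (9.80%, 3.26 to 21.4%) and in 3 of 99 *Tet2* KO members (3.03%, 0.63 to 8.601%). The other groups of cells of the sort had 3.33 to 7.18% in WT and 4.01 to 4.59% in *Tet2* KO, inside the intervals of the members.

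Progenitor factors were intermediate or alike. *Myb* was at 162 CPM in WT members, 113 in the *Ly86* class and 278 in the *Cebpe* class, and at 147, 92.4 and 276.5 CPM in *Tet2* KO. *Spi1*, which encodes PU.1 and serves both fates, was at 250.0 CPM in WT members, with 262 and 232.5 CPM in the *Ly86* and *Cebpe* classes, and at 266 CPM in *Tet2* KO, with 276 and 219.8 CPM. *Cebpa*, the C/EBP factor of GMP formation, was at 21.4 and 15.6 CPM in the members, and all 4 intervals of its ratios over the classes included 0.

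Of 16 growth factor and cytokine receptors tested, *Csf1r*, *Il6st*, *Ccr2* and *Il17ra* were 2-fold higher than in the *Cebpe* class, and *Il6st* was 2-fold lower than in the *Ly86* class. For all genes tested these shares were 1.7% and 0.118%. *Il6st* encodes gp130, the shared chain of the interleukin-6 family receptors, and was at 9.73 and 8.86 CPM in the members, 23.8 and 22.8 CPM in the *Ly86* class and 1.06 and 1.70 CPM in the *Cebpe* class. *Csf3r*, the receptor for granulocyte colony-stimulating factor, was at 21.4 and 18.8 CPM, and all 4 intervals of its ratios included 0. *Kit*, the stem cell factor receptor used in the sort, was at 23.3 and 21.4 CPM in the members, 18.6 and 13.4 CPM in the *Ly86* class and 38.8 and 38.7 CPM in the *Cebpe* class.

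*Cd180*, whose product is the membrane partner of MD-1, gave 8 UMIs in WT and 12 in *Tet2* KO members. That is 7.78 and 6.25 CPM, where the *Ly86* class had 7.61 and 5.29 CPM and the *Cebpe* class 2.38 and 1.43 CPM. The log2 ratio over the *Cebpe* class was 1.71 (0.30 to 2.98) in WT and 2.13 (0.92 to 3.30) in *Tet2* KO. Of 6 Toll-like receptors and partners tested, *Unc93b1*, the chaperone of the endosomal receptors, was 2-fold higher than in the *Cebpe* class (168 and 131 CPM in the members, 47.4 and 55.2 CPM in that class), and none differed 2-fold from the *Ly86* class. Among all genes tested, 1.7% were higher than in the *Cebpe* class.

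Levels also differed by the number of UMIs of each gene. Among cells with at least 2 *Cebpe* UMIs, *Irf8* was at 12.99, 97.4, 244 and 427 CPM in WT cells with 0, 1, 2 and at least 3 *Ly86* UMIs, and at 40.0, 118.5, 209 and 352 CPM in *Tet2* KO. *Irf8* was thus higher at each step in both libraries, already with 1 *Ly86* UMI. The primary granule list was at 36805, 37415, 25434 and 26607 CPM in WT and at 36873, 32346, 30168 and 25187 CPM in *Tet2* KO, lower at each step in *Tet2* KO but not in WT. These steps hold 358, 24, 14 and 37 WT cells and 651, 72, 31 and 68 *Tet2* KO cells. Their median depth lay between 19642 and 20478 UMIs in WT and went from 14873 to 18676 UMIs over the steps in *Tet2* KO, and its part in these differences was not tested.

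From the other side, cells with at least 3 *Ly86* UMIs had *Elane* at 3998, 6225, 7314 and 8384 CPM in WT with 0, 1, 2 and at least 3 *Cebpe* UMIs, and at 4230, 6293, 6470 and 7951 CPM in *Tet2* KO. The monocytic list was at 7130, 6664, 7332 and 5260 CPM in WT and at 7241, 6998, 6678 and 6102 CPM in *Tet2* KO, lowest in the cells with the most *Cebpe*. Median depth over these steps ran from 19416 to 20593 UMIs in WT and from 17122 to 19115 UMIs in *Tet2* KO. The steps with the most *Cebpe* held 15 WT and 30 *Tet2* KO cells.

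**Figure D4:**
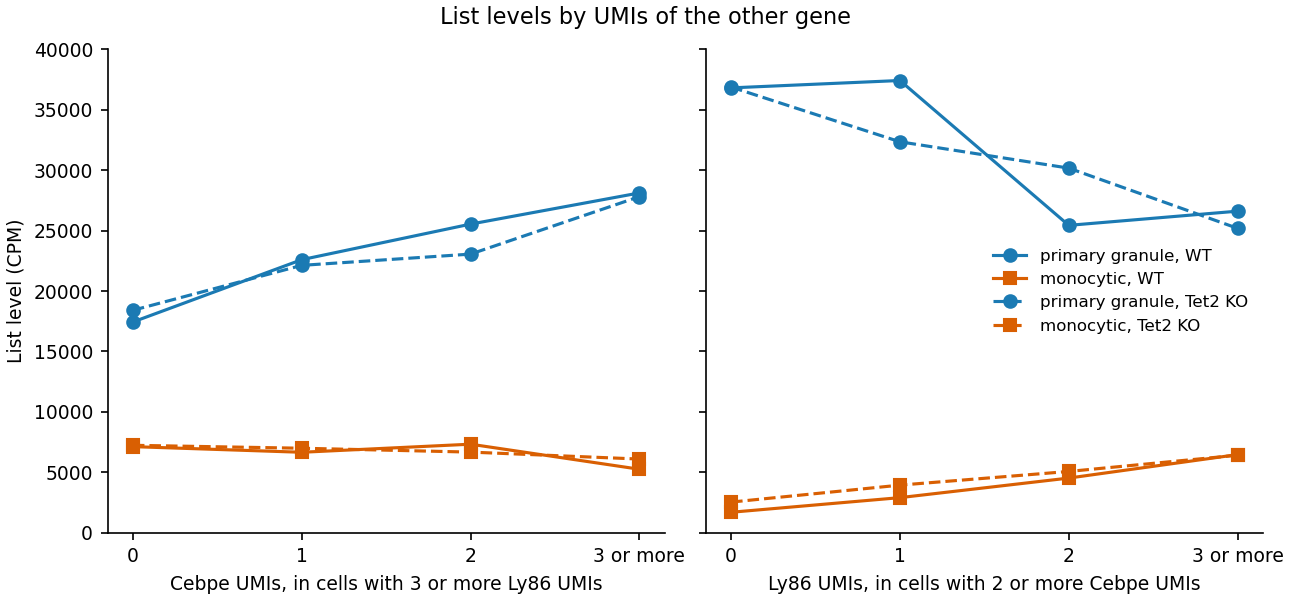
Summed level (y axis, CPM) of the primary granule list (blue circles) and the monocytic list (orange squares) by UMIs of *Cebpe* in cells with 3 or more *Ly86* UMIs (left) and by UMIs of *Ly86* in cells with 2 or more *Cebpe* UMIs (right), WT as solid and *Tet2* KO as dashed lines. On the right the monocytic list goes from 1701 to 6472 CPM in WT and from 2542 to 6420 CPM in *Tet2* KO, and on the left the granule list goes from 17440 to 28116 CPM and from 18407 to 27808 CPM.

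Over many genes at once the members lay between the classes. In both libraries 149 genes were at least 2-fold higher in the *Ly86* than in the *Cebpe* class, and 110 were at least 2-fold higher in the *Cebpe* class. On a linear scale from 0 (the level of the *Cebpe* class) to 1 (that of the *Ly86* class), the first set had a median position of 0.65 in WT and 0.67 in *Tet2* KO, and 141 and 145 of its genes lay between. The second set had a median position of 0.71 in WT and 0.76 in *Tet2* KO, with 103 genes between in each library. The members were nearer to the *Ly86* class for both sets on this scale. On a log2 scale the median positions were 0.80 and 0.79 for the first set. For the second set they were 0.56 and 0.60, nearer to the middle. The positions describe the members and are no test, since the classes were cut with the same 2 genes.

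No gene was at least 1.5-fold above both classes in both libraries (0% of the 5928 genes), and 4 were at least 1.5-fold below both (0.0675%). The gene that came nearest above was *Prep*, a prolyl endopeptidase, at 25.3 CPM in WT members with 16.8 and 15.05 CPM in the *Ly86* and *Cebpe* classes. In *Tet2* KO it was at 21.9 CPM, with 14.02 and 14.0 CPM in the classes. The 4 genes below were *Thap3*, *Dennd4a*, *H2-Ab1* and *Tmem131l*. *Thap3*, a zinc finger protein, rested on 8 and 14 UMIs, *Dennd4a* on 5 and 11, and *Tmem131l* on 2 and 10. With an offset of 10 in place of 1 CPM, 0 genes were below both.

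Class II transcripts were few in the members, with 23 UMIs in WT and 40 in *Tet2* KO. The class II genes *Cd74*, *H2-Aa*, *H2-Ab1* and *H2-Eb1*, which dendritic cells express, were 2-fold lower than in the *Ly86* class, where 4 cells per library held 96.0% (WT) and 91.4% (*Tet2* KO) of their UMIs. No WT and 1 *Tet2* KO member had 10 or more class II UMIs. Without all such cells, 2 genes in place of 7 were 2-fold lower than in the *Ly86* class, *Hist1h2ab* and *Il6st*, and *H2-Ab1* was at 16.5 CPM in WT and 12.1 CPM in *Tet2* KO members with 9.10 and 12.4 CPM in that class. Leaving out these cells was decided after their values had been seen.

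The *Cebpe* class held eosinophil and basophil transcripts that were lower in the members. *Mcpt8* was read in 29.4% of WT and 19.2% of *Tet2* KO members. It was read in 21.9% and 12.7% of the *Ly86* class and in 58.6% and 43.7% of the *Cebpe* class. *Prg2*, the major basic protein of eosinophils, was at 1.94 and 1.56 CPM in the members and at 205 and 173 CPM in the *Cebpe* class, where 5 WT and 16 *Tet2* KO cells gave 98.5% and 97.1% of its UMIs. No member had 10 *Prg2* UMIs, and 1 WT and 2 *Tet2* KO members had 5 or more UMIs of *Mcpt8* and *Prss34*. *Cpa3*, mast cell carboxypeptidase, was at 4.86 and 14.6 CPM in the members and at 88.5 and 127 CPM in the *Cebpe* class. Without cells rich in *Prg2* or in *Mcpt8* and *Prss34* it was at 4.98 and 14.3 CPM and at 78.9 and 102 CPM, so for this gene the difference did not rest on those cells. *Ighm*, the immunoglobulin heavy chain also transcribed in myeloid progenitors, was 2-fold higher than in the *Cebpe* class, at 142 and 145 CPM with 21.8 and 52.2 CPM there and 197 and 183 CPM in the *Ly86* class. *Jchain* was read in WT but not in *Tet2* KO members, a *Tet2* KO over WT log2 ratio of -4.61 on CPM plus 1. In the GMP sort 1 WT and 0 *Tet2* KO cells had at least 3 UMIs of *Jchain*, *Cd79a* or *Cd3e*. Whether members hold RNA of lymphoid cells was not tested. No gene of a list of 9 macrophage genes reached 10 CPM over all cells of both libraries.

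Single cells differed in how much of each programme they held. The lower quartile of the monocytic list in the *Ly86* class was 5459 CPM in WT, and that of the primary granule list in the *Cebpe* class 25686 CPM. In WT, 30 of 51 members were at or above the first level, 23 at or above the second, and 10 (19.6%, 9.82 to 33.1%) at or above both. In *Tet2* KO, where the levels were 5921 and 26101 CPM, the numbers were 58, 50 and 27 of 99, so 27.3% (18.8 to 37.2%) were past both. The share past both levels was 9.98% and 11.4% in the *Ly86* class, 1.57% and 6.36% in the *Cebpe* class and 8.17% and 13.8% in the remaining cells of the sort.

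**Figure D5:**
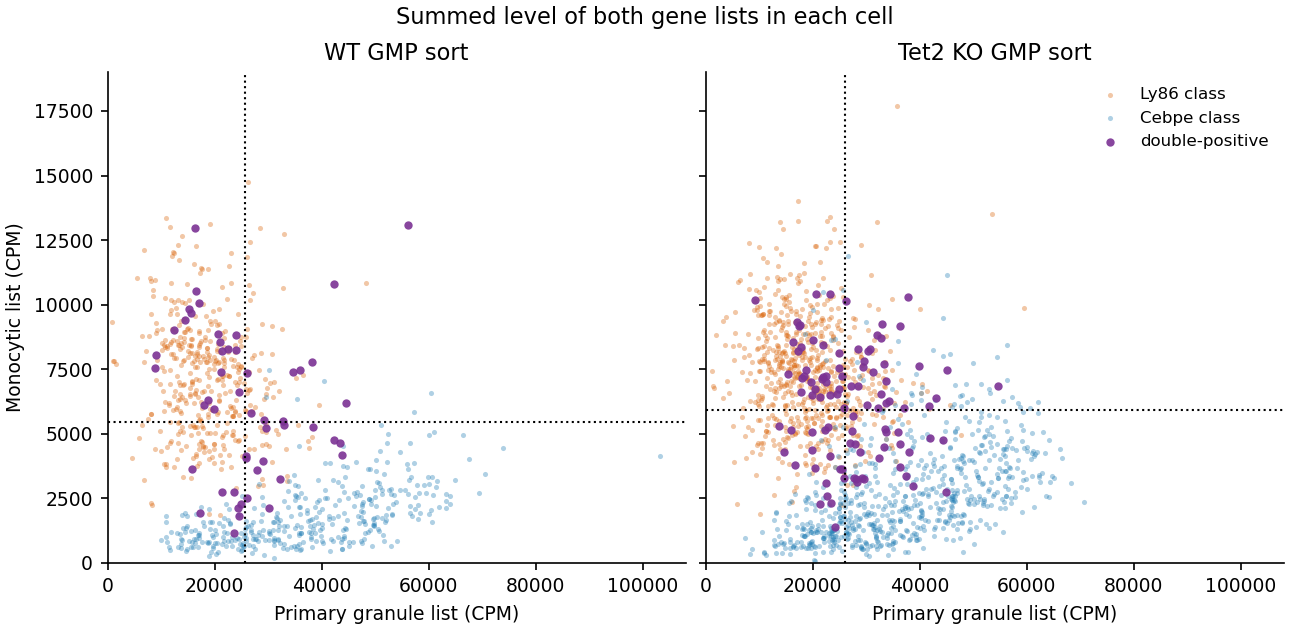
Summed level of the monocytic list (y axis, CPM) against that of the primary granule list (x axis, CPM), 1 point per cell, for the *Ly86* class (orange), the *Cebpe* class (blue) and the double-positive cells (purple). Dotted lines mark the lower quartile of the monocytic list in the *Ly86* class and of the primary granule list in the *Cebpe* class, and 10 WT and 27 *Tet2* KO double-positive cells lie past both.

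Among the members both lists were weakly related. Pearson's r across the 51 WT cells was -0.09 and Spearman's rho -0.30, and across the 99 *Tet2* KO cells they were -0.15 and -0.17. These cells share 1 library each, and the lists share the total by which each cell is scaled.

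The nearest neighbours of each member, found without *Cebpe* and *Ly86* among the 2000 most variable genes, were more often of the *Ly86* than of the *Cebpe* class. Of the 30 neighbours of a WT member, 53.7% on average were of the *Ly86* class, 17.3% of the *Cebpe* class, 9.41% double-positive and 19.6% of neither, where the WT library held 33.5%, 30.4%, 4.05% and 32.1%. In *Tet2* KO the neighbours were 40.4%, 12.9%, 7.74% and 39.0%, where the library held 24.9%, 26.6%, 3.64% and 44.9%. Cells of the *Ly86* class had 1.05% and 2.25% *Cebpe*-class neighbours, and cells of the *Cebpe* class 1.36% and 2.63% *Ly86*-class neighbours. Cells of neither class, like the members, had neighbours of both (22.9% and 25.6% in WT, 20.3% and 22.02% in *Tet2* KO).

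At least 1 neighbour of each class was found around 16 of 51 WT members (31.4%) and 65 of 99 *Tet2* KO members (65.7%), and at least 5 of each around 4 members in each library. These counts were made for the members only. The same number of neighbours is also a larger part of the smaller WT library. In WT, 36 members had more *Ly86*-class and 15 more *Cebpe*-class neighbours. In *Tet2* KO, 71 and 26 did, with 2 ties. This division was made on the cells' own expression and is a description. Members on the *Cebpe* side had *Irf8* at 86.9 CPM (57.8 to 126) in WT and 106 CPM (77.9 to 141) in *Tet2* KO, above the 18.5 and 48.6 CPM of the *Cebpe* class. Members on the *Ly86* side had *Elane* at 6573 CPM in WT and 6900.0 CPM in *Tet2* KO, above the 4465 and 4656 CPM of the *Ly86* class.

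Between the genotypes the double-positive cells had similar levels of the lists that separate the classes. The log2 ratio of *Tet2* KO over WT was 0.02 (-0.03 to 0.06) for the monocytic list and 0.02 (-0.00 to 0.04) for the primary granule list. In the *Cebpe* class the monocytic list had a ratio of 0.60 (0.57 to 0.63), and in the *Ly86* class of 0.03. The secondary and tertiary granule list was higher in *Tet2* KO members by 0.57 (0.48 to 0.67) on the log2 scale, and by 0.69 in the *Ly86* and 0.84 in the *Cebpe* class. In the members *S100a8* and *Chil3* carried this difference. Without these 2 genes, left out after their values had been seen, the list was at 920.2 CPM in WT and 962 CPM in *Tet2* KO members, a log2 ratio of 0.06 (-0.05 to 0.18), and its ratio was 0.39 in the *Ly86* and 0.11 in the *Cebpe* class. The median ratio of the 10 genes tested was 0.23 in the members. Each of these ratios compares 1 mouse with 1 mouse.

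Over 6126 genes with a mean of at least 10 CPM, 81 (1.32%) were at least 2-fold higher and 73 (1.19%) at least 2-fold lower in *Tet2* KO than in WT members. The *Ly86* class, with more cells, had 18 and 21 such genes and the *Cebpe* class 22 and 12. Ranked by their ratio where either library gave 50 UMIs or more, the highest were *Rpgrip1*, *Lepr*, *Chil3*, *Ckap2l* and *S100a8*. *Rpgrip1*, a ciliary protein, had 0 UMIs in WT members, which allows up to 2.92 CPM (3 UMIs over the group), and 34.4 CPM in *Tet2* KO, at least 11.8-fold higher. It had log2 ratios of 5.35 and 5.25 in the *Ly86* and *Cebpe* classes, so the difference was not particular to the members.

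*Lepr*, the leptin receptor, had 1 UMI in WT and 82 in *Tet2* KO members, a log2 ratio of 5.46 (2.94 to 10.78), and ratios of 1.49 and 1.41 in the classes. *Chil3*, a chitinase-like protein of myeloid cells, had a ratio of 3.48 (2.52 to 4.63), with 36.9% of its *Tet2* KO UMIs in 1 cell. Its 9 UMIs in WT members came from 3 cells. In the *Ly86* and *Cebpe* classes its ratio was 1.69 and 3.82, so the difference was not particular to the members. *S100a8* had a ratio of 1.53 (1.33 to 1.74), below the 3.61 and 2.16 of the *Ly86* and *Cebpe* classes.

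Among the lowest in *Tet2* KO members were *Dmkn*, *Gm10076*, *Dusp1* and *Cd24a*. *Cd24a*, the heat stable antigen, had a log2 ratio of -1.07 (-1.37 to -0.77) and, in the classes, -0.62 and -0.40. *Dusp1*, an immediate early phosphatase, had a log2 ratio of -1.16 (-1.77 to -0.57) and, in the classes, -0.89 and -0.53. These 4 genes were lower in *Tet2* KO in the members and in both classes.

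The same rule was applied to the other sort of the same mice, in cells with at least 5 *Mpo* UMIs. There, 23 of 844 WT cells (2.73%, 1.74 to 4.06%) and 27 of 1354 *Tet2* KO cells (1.99%, 1.32 to 2.89%) were double-positive. Their monocytic list was at 6377 CPM in WT and 7375 CPM in *Tet2* KO, with 7474 and 7720 CPM in the *Ly86* class and 1988 and 2630 CPM in the *Cebpe* class. Their primary granule list was at 23487 and 16488 CPM, with 13172 and 11259 CPM in the *Ly86* class and 36163 and 30812 CPM in the *Cebpe* class. The order of the 3 groups was that of the GMP sort. These double-positive cells had a median of 15661 UMIs in WT, with 14082 in the *Ly86* and 15220 in the *Cebpe* class. In *Tet2* KO the medians were 17452, 15094 and 12879 UMIs, so the double-positive cells were the deepest group in both libraries. The part of depth in these levels was not tested.

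For the 149 genes of the *Ly86* class the median position in that sort was 0.68 in WT and 0.91 in *Tet2* KO, and for the 110 genes of the *Cebpe* class 0.66 and 0.71. The secondary granule list was at 5912 and 19049 CPM there, with 3 cells giving 82.0% and 80.8% of it. Of the 10 genes farthest above both classes in the GMP sort, 1 (*Atm*, the DNA damage kinase) was above both in both libraries of the other sort, by log2 ratios of 0.02 to 0.45. Of the 10 farthest below, 3 (*Dennd4a*, *Nup107* and *Tmem131l*) were below both, and *Thap3*, the lowest in the GMP sort, had 4 of 4 ratios above 0.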

How the data were processed

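The authors deposited raw UMI counts per gene and cell for 4 libraries, with a table of each cell's library, mouse, UMIs and genes. Per the submitters' processing notes and the study's methods, reads were counted with Cell Ranger 3.1.0 on mm10 and loaded in Seurat, and cells under 5000 UMIs were left out. The methods also name a limit of 5% mitochondrial reads, which 296 cells of the GMP sort and 4 members reached, and they were kept here. The reagent kit is v2 in the protocol and v3.1 in the design text. UMI totals of the matrix equalled the cell table in 8969 of 8969 cells. Median UMIs per cell of the members and both classes were 15100 to 20185.

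Libraries followed the deposited cell table and classes followed raw UMIs. The study's list of cell numbers has those of the *Tet2* KO GMP and WT Lin_neg_CD11b libraries exchanged, and the marker content of both libraries matched the sorts of the cell table. UMIs were summed per library and class and scaled to CPM, and counts of genes past a fold used an offset of 1 CPM. The genes named were the 10 highest and lowest over each class by the smaller ratio of both libraries, the 10 farthest above and below both classes, the 10 highest and lowest *Tet2* KO over WT with at least 50 UMIs in 1 library, and genes of 19 lists. Of these, 2 genes are not reported here. Members and lists were chosen with earlier results of these data known. Neighbours (30 components) and Scrublet scores came from scanpy 1.11.5, and no doublets were removed. Alternatives were TMM factors (edgeR 4.0.16), the mean over cells, weights for depth, thinned cells, other UMI minimums, offsets and filters, and leaving out cells with high UMIs or Scrublet scores. Leaving out cells with shared barcodes or with class II, *Prg2* or basophil genes, or single genes of a list, was chosen after seeing the data. The ratio code was tested on simulated counts. Python 3.11.15, numpy 2.4.6 and scipy 1.17.1 were used.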

Additional observations from a re-analysis of the deposited data

Results flagged for a closer look

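For 3 gene lists the double-positive cells stood on opposite sides of the *Ly86* class in WT and *Tet2* KO, with counting intervals that left out 0 in each. The difference between genotypes was not tested, since each genotype is 1 library. The basophil and mast cell list had a log2 ratio over the *Ly86* class of -0.95 (-1.32 to -0.60) in WT and of 1.06 (0.80 to 1.31) in *Tet2* KO. The members were at 67.1 and 88.6 CPM, and the *Ly86* class was at 129.5 CPM in WT and 42.5 CPM in *Tet2* KO. In the WT *Ly86* class 1 cell gave 369 of the 1072 UMIs of the list (34.4%), and 7 cells with 5 or more UMIs of *Mcpt8* and *Prss34* gave 70.7%. In the *Tet2* KO *Ly86* class 1 cell gave 18.2% and 7 such cells 34.0%, and in the members 1 cell gave 14.5% in WT and 17.1% in *Tet2* KO. Without cells rich in these genes or in *Prg2*, left out after their values had been seen, the WT ratio was 0.5967 (0.17 to 1.002), at 58.8 CPM in the members and 38.9 CPM in the *Ly86* class. The *Tet2* KO ratio was then 1.37 (1.08 to 1.66), at 73.55 and 28.4 CPM, so the opposite signs were not found without those cells.

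The list of 32 genes of S phase had a ratio of 0.10 (0.04 to 0.15) in WT, at 2874 CPM in the members and 2683 CPM in the *Ly86* class, and of -0.15 (-0.20 to -0.11) in *Tet2* KO, at 2354 and 2615 CPM. None of its 31 genes tested differed 2-fold from the *Ly86* class in both libraries. The quartiles of the list over single members were 2237 and 3447 CPM in WT and 1597 and 2941 CPM in *Tet2* KO. The counting intervals do not cover this spread between cells. The list of 38 ribosomal protein genes had ratios of -0.035 in WT and 0.020 in *Tet2* KO, at 204350 and 209309 CPM and at 199989 and 197239 CPM.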

How the results depend on the processing

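Of 157 alternative values of 31 results, 103 stayed within their limits, 53 moved and 1 reversed. Of 71 alternative list ratios 1 changed sign, that of the basophil and mast cell list over the WT *Ly86* class, which was 0.5967 without eosinophil or basophil cells. The causes of the other changes were not tested. With at least 1 UMI of each gene the members were 14.86% (WT) and 16.37% (*Tet2* KO) of cells, with at least 3 they were 1.192% and 1.103%, and in cells thinned to 5000 UMIs 0.2385% and 0.331%. In classes drawn after thinning, from 3 and 9 members, the depth ratio over the *Ly86* class was 0.5421 and 0.9655 and over the *Cebpe* class 0.53 and 1.142. Without the filter on low values (14473 genes) 28 genes were above both classes, 82 below both, 812 higher and 600 lower in *Tet2* KO. With an offset of 10 CPM the last 3 counts were 0, 12 and 7. Weighting the classes to the members' depth gave 2 genes above both, and leaving out cells above the 95th percentile of UMIs gave 8 below both. Genes lower than the *Ly86* class numbered 26 with at least 3 UMIs of each gene and 2 without class II cells. The monocytic list over the *Cebpe* class was 1.688 (WT) and 1.106 (*Tet2* KO) with TMM factors, 1.825 and 1.191 without the highest Scrublet scores, 1.564 in WT with at least 3 UMIs, and 1.344 in *Tet2* KO with depth weights. Without *Ly6c2*, left out after its values had been seen, it was 1.85 and 1.573, and over the *Ly86* class -0.4563 and -0.461. Over the *Ly86* class it was -0.2974 in WT with TMM factors, -0.4189 in WT with at least 3 UMIs and -0.2042 in *Tet2* KO with depth weights. The primary granule list over the *Cebpe* class was, in WT and *Tet2* KO, -0.5413 and -0.5026 with TMM factors, -0.5067 and -0.4027 without the highest UMIs, -0.3901 and -0.3875 with at least 3 UMIs, and -0.5173 and -0.4717 without eosinophil or basophil cells. It was -0.5161 in WT as the mean of cells, -0.5753 in WT without the highest Scrublet scores and -0.3359 in *Tet2* KO with depth weights. Over the *Ly86* class it was 0.6023 and 0.5363 with at least 3 UMIs, 0.4484 in WT with TMM factors, 0.443 in WT without the highest Scrublet scores, 0.4971 in *Tet2* KO as the mean of cells and 0.5377 in *Tet2* KO without the highest UMIs. No paired analysis was possible because the groups share 1 replicate number and no result comes from a test. With 51 and 99 members, genes of few UMIs have wide intervals.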

Other observations

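Genes of G2/M and mitosis lay between both classes. The list of 33 genes was at 4201 CPM in WT members, 5157 CPM in the *Ly86* class and 3842 CPM in the *Cebpe* class, and in *Tet2* KO at 5538, 5718 and 4062 CPM. *Top2a*, the topoisomerase of dividing cells, was at 163 and 189 CPM in the members with 233 and 239 CPM in the *Ly86* class. The list was higher in *Tet2* KO members than in WT members by 0.40 on the log2 scale (0.35 to 0.45), with 2 of 33 genes, *Cenpf* and *Nusap1*, past 2-fold. Over all genes tested, 1.32% were at least 2-fold higher in *Tet2* KO members. In the *Ly86* and *Cebpe* classes the ratio of the list was 0.15 and 0.08. The S phase list had a *Tet2* KO over WT ratio of -0.29 (-0.36 to -0.22) in the members and of -0.04 and -0.17 in the *Ly86* and *Cebpe* classes.

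Immediate early genes had a *Tet2* KO over WT ratio of -0.50 (-0.61 to -0.39) in the members and of -0.76 and -0.33 in the *Ly86* and *Cebpe* classes. The interferon response list had ratios of 0.27 (0.05 to 0.48), 0.33 and 0.29. The list of early progenitor genes was at 614 CPM in WT and 525 CPM in *Tet2* KO members, with 493 and 558 CPM in the *Ly86* class and 929 and 786.5 CPM in the *Cebpe* class. *Adgrg1*, the adhesion receptor GPR56, was intermediate in both libraries, at 15.6 and 12.0 CPM, with 7.25 and 5.04 CPM in the *Ly86* class and 42.5 and 35.9 CPM in the *Cebpe* class.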
